A study of Mus musculus with 2 samples.

Results

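The chief and mucous secretory program of the gastric gland was followed through 7 genes, set by a list of names: Pgc, Agr2, Bhlha15, Xbp1, Spdef, Creb3l1 and Creb3l4. All 7 were found among the 19550 genes counted. Their levels were read in 1494 of the 7808 deposited cells, those labelled columnar epithelium by the authors that carried a tag of the stomach or of the gastroesophageal squamocolumnar junction (GE-SCJ, where squamous esophageal and columnar gastric epithelium meet). A further 354 cells of the immune class, from all regions, served as background.

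The cells came from wild type C57BL/6 mice at embryonic day 15 (E15), embryonic day 19 (E19), pup (day 2) and adult (8 weeks) stages, with no treatment. The design text gives 6 mice at E15, 2 at E19, 2 pups and 3 adults, while the methods speak of 3 mice combined, and cells of a region and stage shared a tag and were sequenced in a single library. Stomach columnar cells numbered 140 at E15, 366 at E19 and 351 in pups, and those of the GE-SCJ 53, 274, 291 and, in adults, 19. Adult stomach is missing among the tagged cells, so 11 of 12 combinations of region and stage exist.

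The mouse behind each cell is not labelled. Every combination of region and stage is therefore 1 pooled sample, differences were not tested and no p-value is given. Levels are a gene's unique molecular identifiers (UMIs), added up over a group, per 1000000 UMIs of that group (CPM); the range in parentheses is the exact 95% Poisson interval. Shares have exact Clopper-Pearson intervals. Ratios are log2 values, with 1 UMI added to each sum and exact counting intervals, and a gene was called at 2-fold or more only with at least 100 UMIs over both groups. All intervals cover counting error only and leave out the spread between mice. Those of levels and ratios also leave out the spread between cells. UMIs mark the 3′ ends of transcripts and do not scale with their length, but capture differs between genes, so levels are compared between groups and not between genes. Fewer cells of a kind and less RNA per cell cannot be told apart in a sum, which is why the spread over cells is also given.

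The secretory program of gastric glands joins products, the endoplasmic reticulum (ER) machinery that folds them, and transcription factors that enlarge this machinery. Pgc encodes pepsinogen C, a zymogen of chief cells that mucous neck cells also make. Agr2 encodes a disulfide isomerase of the ER needed for mucin folding. Bhlha15 (MIST1) is a basic helix-loop-helix factor that scales up granules and ER in mature zymogenic cells, and Xbp1 encodes the factor whose mRNA is spliced by the ER stress sensor IRE1. Spdef is an ETS factor of mucous and goblet cells. Creb3l1 (OASIS) and Creb3l4 encode bZIP factors held in the ER membrane until cleavage releases them to the nucleus.

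On GRCm38, GENCODE M21 places Pgc at chr17:47726842-47734482, Agr2 at chr12:35992907-36004087, Bhlha15 at chr5:144190286-144194441 and Xbp1 at chr11:5520659-5525893, all on the plus strand. Spdef lies at chr17:27714352-27728955, Creb3l1 at chr2:91982328-92024502 and Creb3l4 at chr3:90237500-90243512, all on the minus strand. RefSeq promoters (GRCm38.p6) matched 6 of the 7 genes, without Creb3l1. The 250 bases before the start are shown for a product, a folding enzyme and an E-box factor, the 3 genes with the largest pup over E15 ratios in the stomach. They lie at chr17:47726592-47726841, chr12:35992675-35992924 and chr5:144190036-144190285, on the plus strand. Capitals mark TATAAA and the E-box CANNTG, the letters read by basic helix-loop-helix factors such as BHLHA15, searched on both strands.

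Pgc: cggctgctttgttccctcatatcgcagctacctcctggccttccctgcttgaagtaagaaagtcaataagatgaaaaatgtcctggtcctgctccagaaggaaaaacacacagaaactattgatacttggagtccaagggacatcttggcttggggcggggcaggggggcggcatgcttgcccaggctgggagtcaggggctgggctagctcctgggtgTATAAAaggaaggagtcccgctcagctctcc

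Agr2: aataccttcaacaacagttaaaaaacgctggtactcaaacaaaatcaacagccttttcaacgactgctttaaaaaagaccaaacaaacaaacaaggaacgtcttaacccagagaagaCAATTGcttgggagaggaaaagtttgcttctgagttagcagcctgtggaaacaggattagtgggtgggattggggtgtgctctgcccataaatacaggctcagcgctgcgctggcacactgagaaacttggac

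Bhlha15: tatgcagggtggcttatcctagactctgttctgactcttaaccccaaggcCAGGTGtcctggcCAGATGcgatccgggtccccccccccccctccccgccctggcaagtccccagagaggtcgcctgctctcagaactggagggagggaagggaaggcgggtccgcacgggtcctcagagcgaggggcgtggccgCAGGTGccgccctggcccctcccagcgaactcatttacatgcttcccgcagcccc

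The Pgc window held TATAAA, starting at -31 from the transcription start, and no E-box, whereas those of Agr2 and Bhlha15 held 1 and 3 E-boxes and no TATAAA. An E-box stood in 66.2% and TATAAA in 12.4% of all 32851 RefSeq windows of this length. GGAT, a core read by SPDEF, stood in 74.1% of windows, at 2 places in that of Agr2 and 5 in that of Spdef itself. It also stood at 2 places in that of Bhlha15, 1 in that of Xbp1 and 2, 0 and 3 in those of Creb3l4, but not in that of Pgc. ACGTG, a core of sites for XBP1 and the CREB3 family, stood in 16.6% of windows and, of the 6 matched genes, only in that of Spdef. A match is a description of letters, and the counts hold no measure of binding.

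The columnar label went with its markers, which is no independent check, since the authors named the classes by known markers. Epcam, Krt8, Krt18, Gata4 and Cldn18 summed to 3717 to 5475 CPM in the 7 columnar groups. In immune cells they summed to 432 CPM, and by stage to 294 CPM (E15) up to 1004 CPM (adult). The leukocyte genes Ptprc, Tyrobp, Fcer1g, Cd52 and Coro1a summed to 3.66 to 19.3 CPM in the columnar groups against 4828 CPM in immune cells. By group the median columnar cell held 22286 to 29810 UMIs, and the median immune cell 8266.5 UMIs. The makeup of the columnar class differed by stage. Parietal genes (Atp4a, Atp4b) summed to 166, 423 and 6374 CPM in E15, E19 and pup stomach, neck genes (Muc6, Tff2, Aqp5) to 1275, 1106 and 3329 CPM, and proliferation genes (Mki67, Top2a, Ccnb1) to 559, 395 and 136 CPM. Immune cells of the same stages held 151, 183 and 234 CPM of the parietal genes, so E15 stomach was close to that background. The part of the columnar makeup in the members' values was not tested.

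Of the 7 genes, 6 were at least 2-fold higher in pup than in E15 columnar cells of the stomach, beside 8.97% of 9333 genes with enough UMIs, and 6 in the GE-SCJ, beside 8.41% of 8002. The 7 were chosen with earlier results of these data known, so these counts are a description only. The median of all genes was at a log2 ratio of -0.36 in the stomach and -0.35 in the GE-SCJ, so the typical gene was lower in the pup on this scale. Spdef stayed below 2-fold in the stomach and Xbp1 in the GE-SCJ. Counting intervals spanned 2-fold for Xbp1 and Creb3l4 in the stomach and for Xbp1 and Spdef in the GE-SCJ. Bhlha15 had 15 UMIs in E15 stomach and 6 in E15 GE-SCJ. It could reach the 100-UMI minimum only if higher in the pup, so its calls add no support to these counts.

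**Figure D1:**
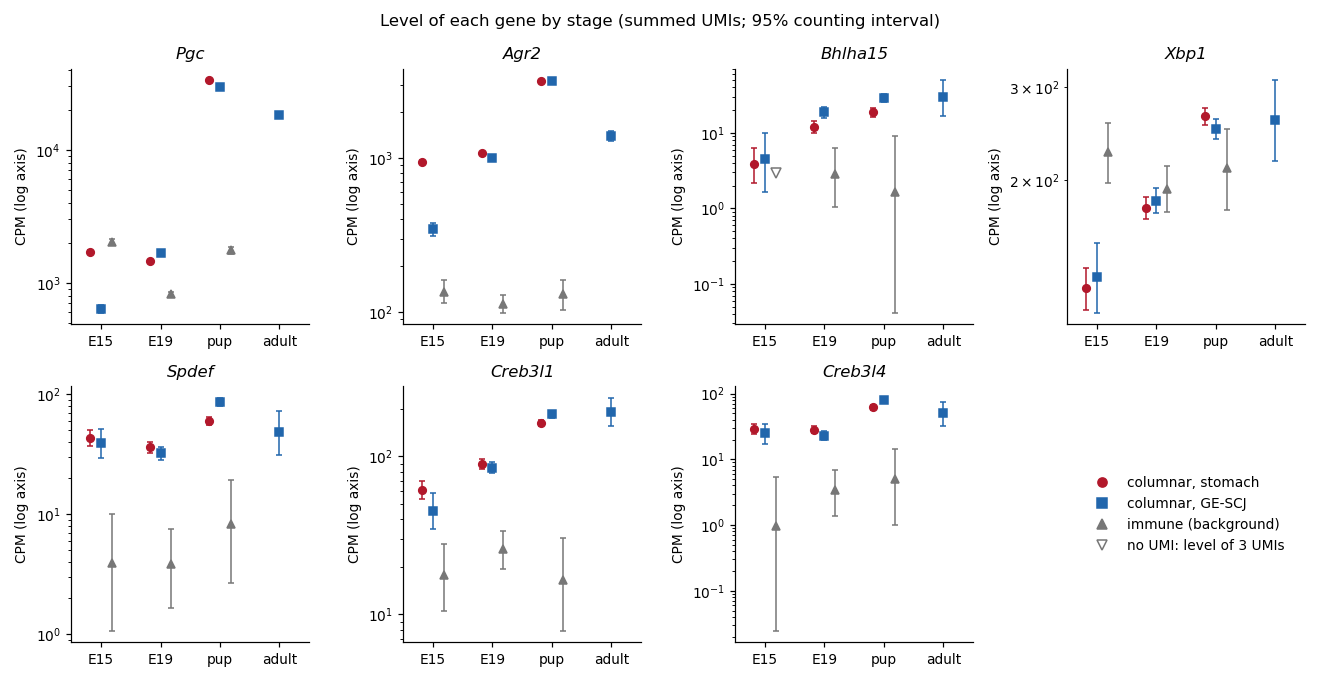
CPM of each gene (log axis, own range per panel) by stage in columnar cells of the stomach, of the GE-SCJ and in immune cells, with 95% counting intervals. Pgc and Agr2 stand highest in the pup. Immune Xbp1 stands above columnar Xbp1 at E15 (226 CPM beside 125 and 131 CPM) and closer to it at E19 and in the pup.

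Pgc had the largest pup over E15 ratio of the 7. Stomach columnar cells of E15, E19 and pup held 1718 CPM (1677 to 1760), 1453 CPM (1429 to 1477) and 33193 CPM (33087 to 33299). GE-SCJ cells of E15, E19, pup and adult held 639 CPM (597 to 684), 1674 CPM (1644 to 1704), 29779 CPM (29661 to 29898) and 18343 CPM (17968 to 18724). The pup over E15 log2 ratio was 4.27 (4.24 to 4.31) in the stomach and 5.54 (5.44 to 5.64) in the GE-SCJ, so the pup stood far above both embryonic stages in both regions.

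Pgc was also found in every other class. Every columnar and every immune cell held at least 1 Pgc UMI, and the immune cells of E15, E19 and pup held 2040, 818 and 1753 CPM. Immune cells of the 9 tags with at least 10 such cells ranged from 745 to 5106 CPM, and squamous, stromal, smooth muscle, neural and endothelial cells from 728 to 933 CPM. Columnar over immune, the E15 log2 ratio was -0.25 in the stomach and -1.67 in the GE-SCJ, the E19 ratio 0.83 and 1.03, and the pup ratio 4.24 and 4.09. In CPM, summed columnar Pgc was thus below the immune level at E15 and above it from E19 on. The median E15 cell held 24673 UMIs in either columnar group and 11504 UMIs in the immune class. CPM therefore does not give the order of Pgc UMIs per cell. E15 stomach held 6634 Pgc UMIs in 140 cells, E15 GE-SCJ 846 in 53 and E15 immune cells 2076 in 82. Per cell, the stomach was thus above immune cells at E15 and the GE-SCJ below them. At E19 the sums were 13873 UMIs in 366 cells, 11991 in 274 and 1703 in 180, so both regions were above immune cells per cell. These sums include the few cells with much Pgc. The E19 order in CPM depended on few cells. Without cells at 10000 CPM or more, E15 stomach, GE-SCJ and immune cells stood at 671, 639 and 794 CPM. At E19 they stood at 1047, 487 and 809 CPM. Without cells at 5000 CPM or more, E19 stomach was also below immune cells, at 710 beside 771 CPM. Both thresholds were chosen after the values were seen. With each cell thinned to 5000 UMIs, Pgc was found in 89.9% (83.7 to 94.4) of E15 and 95.01% (92.1 to 97.1) of pup stomach columnar cells, and in 94.03% and 100% of immune cells. The share of positive cells did not separate columnar from immune cells at these stages, and the level per cell is given instead.

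Before birth, few cells held much of the columnar Pgc. The median columnar cell stood at 528 CPM (E15) and 536 CPM (E19) in the stomach and at 448 and 435 CPM in the GE-SCJ, below the immune medians of 763 and 861 CPM. In E15 stomach, 2 of 140 cells reached 10000 CPM, a threshold chosen after the values were seen, and carried 61.6% of the Pgc UMIs, and the rest together stood at 671 CPM. At E19 there were 6 such cells of 366 in the stomach, with 29.4% of the UMIs, and 6 of 274 in the GE-SCJ, with 71.7%. None of 53 GE-SCJ cells reached it at E15, and the exact interval extends to 6.72%. Immune cells included a few as well, 2 of 82 at E15, of which a single cell carried 61.8% of the immune Pgc UMIs.

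In the pup, cells rich in Pgc were common. Those at 10000 CPM or more made up 52.4% (47.1 to 57.7) of stomach and 54.98% (49.1 to 60.8) of GE-SCJ columnar cells, beside 1 of 86 immune cells. The median stomach cell stood at 11725 CPM with quartiles of 826 and 52377 CPM, and the median GE-SCJ cell at 14685 CPM with quartiles of 1718 and 47787 CPM. At 20000 CPM or more there were 42.5% and 43.99% of cells, so the spread between cells of a region was far wider than the gap between regions.

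**Figure D2:**
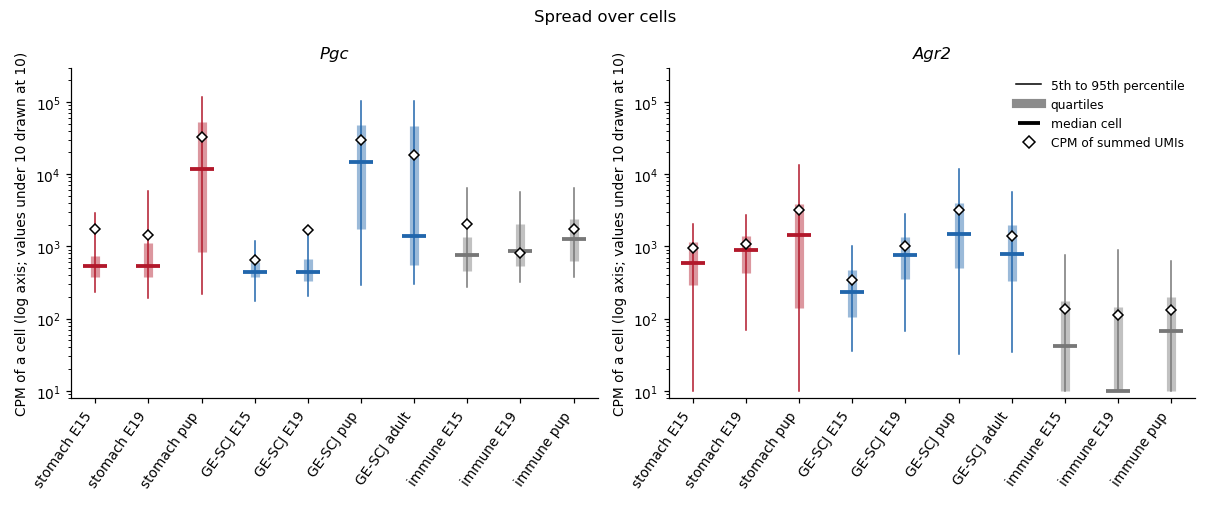
CPM of single cells (log axis) for Pgc and Agr2 in columnar groups of the stomach and GE-SCJ and in immune cells, with the 5th to 95th percentile (thin line), quartiles (thick line), median (bar) and CPM of summed UMIs (diamond). Embryonic Pgc diamonds stand above columnar medians of 435 to 536 CPM, and the pup quartiles lie far apart.

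The E19 over E15 ratio of Pgc depended on these few cells. From summed UMIs it was -0.24 in the stomach and 1.39 in the GE-SCJ, from medians over cells 0.020 and -0.043, and without the 1% of cells with the most Pgc 0.71 and 0.81, so its sign in the stomach and its 2-fold call in the GE-SCJ were both lost. The pup over E15 ratio kept its direction, but its size in the stomach also depended on them. It was 4.27 from sums, 4.47 from medians and 5.51 without the 1% of cells, and in the GE-SCJ 5.54, 5.04 and 5.82.

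Agr2 stood above immune cells from E15 on. Stomach columnar cells of E15, E19 and pup held 943 CPM (913 to 975), 1074 CPM (1054 to 1095) and 3174 CPM (3141 to 3206). Those of the GE-SCJ, from E15 to adult, held 344 CPM (313 to 377), 1002 CPM (978 to 1025), 3162 CPM (3123 to 3200) and 1396 CPM (1294 to 1504). Immune cells held 136, 113 and 130.04 CPM and the other classes 86.5 to 93.5 CPM, which is below every columnar group. Columnar over immune log2 ratios ran from 1.33 (GE-SCJ, E15) to 4.59 (pup, both regions).

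By value, the step of Agr2 from E15 to E19 differed between the pooled samples of the regions. Those of E15 also differed in makeup. The neck gene Muc6 stood at 209 CPM in E15 stomach and 31.7 CPM in the 53 cells of E15 GE-SCJ. The part of this makeup in the Agr2 ratios was not tested. Its E19 over E15 log2 ratio was 0.19 (0.13 to 0.24) in the stomach and 1.54 (1.41 to 1.68) in the GE-SCJ, and its pup over E19 ratio 1.56 and 1.66. Stomach over GE-SCJ, it was 1.45 (1.32 to 1.60) at E15, 0.10 (0.06 to 0.14) at E19 and 0.01 (-0.02 to 0.03) in the pup, so the regions were apart at E15 and close from E19 on. The median cell showed the same order at E15, with 580 CPM in the stomach and 234 CPM in the GE-SCJ. Agr2 was least even in the pup stomach, where the 10% of cells with the most Agr2 held 51.7% of its UMIs, beside 41.97% at E15 and 31.8% at E19. Thinned shares of positive stomach cells were 84.9%, 93.3% and 79.2% (74.5 to 83.4) by stage. The share was thus lower in the pup than at E19 although the level was higher.

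Bhlha15 had few UMIs in any group. Stomach columnar cells of E15, E19 and pup held 3.88 CPM (2.17 to 6.41), 12.04 CPM (9.94 to 14.5) and 18.8 CPM (16.4 to 21.5), from 15, 115 and 215 UMIs. GE-SCJ cells, from E15 to adult, held 4.53 CPM (1.66 to 9.87), 18.8 CPM (15.8 to 22.3), 28.9 CPM (25.4 to 32.9) and 30.3 CPM (16.9 to 49.9), from 6, 135, 237 and 15 UMIs. Immune cells of E15 had no UMI, where 3 UMIs would be 2.95 CPM, and those of E19 and pup had 6 and 1.

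At E15 Bhlha15 could not be set apart from immune cells at this depth, since the lower bound of the columnar over immune log2 ratio was -0.08 in the stomach and -0.14 in the GE-SCJ. From E19 on, the lower bounds were above 0 in both regions. Its step from E15 to E19 was 1.55 (0.85 to 2.52) in the stomach and 1.84 (0.90 to 3.53) in the GE-SCJ, and that from E19 to pup 0.64 (0.31 to 0.98) and 0.61 (0.31 to 0.93). Thinned shares were 1.44%, 4.93% and 8.21% in the stomach and 1.92%, 9.02% and 12.3% in the GE-SCJ, in the same order as the levels. Stomach over GE-SCJ, the ratio was -0.64 (-1.02 to -0.28) at E19 and -0.62 (-0.89 to -0.35) in the pup, lower in the stomach.

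Xbp1 was found in every class and, in CPM, was no higher in embryonic columnar than in the shallower immune cells. Stomach columnar cells of E15, E19 and pup held 125 CPM (114 to 137), 177 CPM (169 to 186) and 264 CPM (255 to 274). GE-SCJ cells held 131, 183, 250.3 and, in adults, 260.2 CPM (217 to 309). Immune cells held 226, 193 and 211 CPM, and stromal cells 196 CPM. The columnar over immune log2 ratio in the stomach was -0.86 (-1.08 to -0.62) at E15, -0.12 (-0.28 to 0.04) at E19 and 0.32 (0.07 to 0.59) after birth, and in the GE-SCJ -0.78, -0.08 and 0.24 (-0.01 to 0.52). Of the genes of plasma cells, an immune type known to use XBP1, Mzb1 had 0 UMIs and Jchain 1 in the 354 immune cells. Cd79a, a gene of the B cell lineage, had 47 UMIs there. The 4 plasma and B cell genes found, 1 of them not read alone, summed to 23.6 CPM. The same genes summed to 32.9 to 68.6 CPM in the columnar groups and 247 CPM in squamous cells. Nearly all of these epithelial sums was the gene not read alone. In squamous cells Cd79a, Jchain and Mzb1 stood at 0, 0.0985 and 0.296 CPM. Cd79a stood at 12.5 CPM in immune cells, above the columnar groups, where E19 stomach was highest at 0.838 CPM. This sum therefore does not single out plasma or B cells, and the part of such cells in immune Xbp1 was not tested.

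The pup over E15 log2 ratio of Xbp1 was 1.08 (0.94 to 1.22) in the stomach and 0.92 (0.71 to 1.16) in the GE-SCJ. Gene counts do not separate its spliced from its unspliced mRNA, so they give no reading of XBP1 activity.

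Columnar Spdef stood above the immune level from E15 on, and was no higher at E19 than at E15. Stomach columnar cells of E15, E19 and pup held 43.2 CPM (36.9 to 50.3), 36.1 CPM (32.4 to 40.2) and 59.98 CPM (55.6 to 64.6). GE-SCJ cells, from E15 to adult, held 39.3 CPM (29.3 to 51.5), 31.97 CPM (27.96 to 36.4), 85.9 CPM (79.7 to 92.5) and 48.4 CPM (31.02 to 72.03). Immune cells held 3.93, 3.84 and 8.23 CPM, below every columnar group. The E19 over E15 ratio was -0.26 (-0.53 to 0.02) in the stomach and -0.32 (-0.74 to 0.17) in the GE-SCJ, and the pup over E19 ratio 0.73 (0.54 to 0.92) and 1.42 (1.21 to 1.65). Pup stomach was below pup GE-SCJ, by a log2 ratio of -0.52 (-0.67 to -0.36), and the thinned shares were 22.9% (18.5 to 27.7) and 30.99% (25.7 to 36.7). In the stomach the higher pup level was in the sum and not in the median cell, with 36.3 CPM (E15) and 30.2 CPM (pup).

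Creb3l4 followed the same course. Its level was 29.01 CPM (23.9 to 34.9), 28.1 CPM (24.8 to 31.6) and 61.6 CPM (57.2 to 66.4) in E15, E19 and pup stomach and 24.9 CPM (17.2 to 35.01), 22.8 CPM (19.4 to 26.5), 79.1 CPM (73.1 to 85.4) and 50.4 CPM (32.6 to 74.4) in the GE-SCJ from E15 to adult. Immune cells held 0.983, 3.36 and 4.94 CPM, from 1, 7 and 3 UMIs. The E19 over E15 ratio was -0.05 (-0.37 to 0.28) and -0.17 (-0.68 to 0.45), and the pup over E19 ratio 1.13 (0.93 to 1.34) and 1.79 (1.55 to 2.05), in the stomach and the GE-SCJ. As for Spdef, pup stomach was below pup GE-SCJ, at -0.36 (-0.52 to -0.20).

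Creb3l1, the other ER-bound factor, was already higher at E19. Its level was 61.6 CPM (54.1 to 69.99), 89.7 CPM (83.8 to 95.9) and 162 CPM (155 to 169.9) in E15, E19 and pup stomach and 45.3 CPM (34.6 to 58.3), 84.9 CPM (78.3 to 91.9), 185 CPM (176 to 194) and 192 CPM (155 to 234) in the GE-SCJ from E15 to adult. The E19 over E15 ratio was 0.54 (0.33 to 0.75) and 0.88 (0.52 to 1.31). Immune cells held 17.7, 25.9 and 16.5 CPM, but stromal cells held 139 CPM, with a UMI in 62.4% of them, so the gene was not limited to epithelium. The stromal genes Col1a1, Col3a1 and Dcn summed to 271, 324 and 163 CPM in E15, E19 and pup stomach columnar cells and to 610, 380 and 177 CPM in those of the GE-SCJ. Their part in the Creb3l1 level was not tested.

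**Figure D3:**
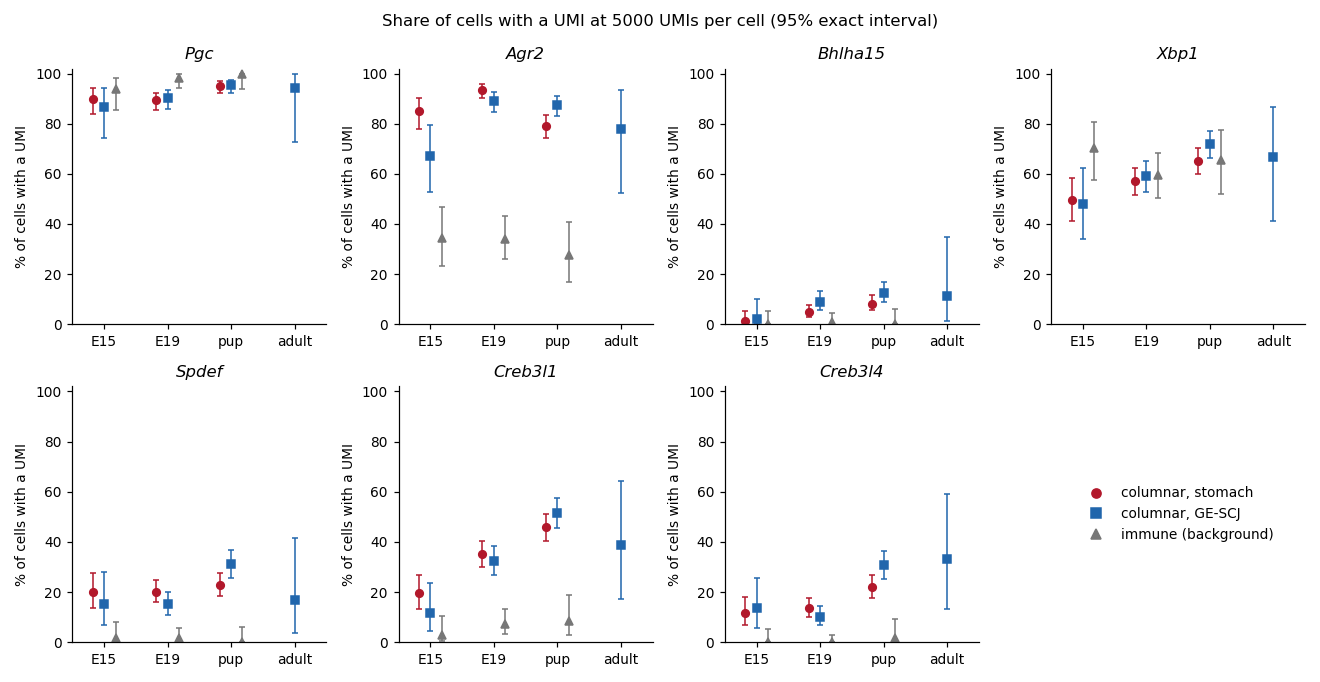
Percent of cells with at least 1 UMI of each gene after thinning to 5000 UMIs per cell, by stage, for columnar cells of the stomach and GE-SCJ and for immune cells, with exact 95% intervals. Columnar shares of Pgc lie close to those of immune cells, while those of Spdef, Creb3l1 and Creb3l4 lie above them.

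Between consecutive stages the 7 genes divided. From E15 to E19, 1 of 7 was at least 2-fold higher in the stomach (Bhlha15), beside 3.2% of all genes, and 3 of 7 in the GE-SCJ (Pgc, Bhlha15, Agr2; Pgc not without its top 1% of cells), beside 2.05%. From E19 to pup, 3 of 7 were in the stomach (Pgc, Agr2, Creb3l4), beside 5.48%, and 5 of 7 in the GE-SCJ (Pgc, Agr2, Spdef, Creb3l1, Creb3l4), beside 5.7%. By value, Bhlha15 had its larger step before E19, but the intervals of its steps overlapped in both regions, with 15 and 6 UMIs at E15. At these counts Bhlha15 could reach the 100-UMI minimum only if higher at E19. Its E19 over E15 calls are therefore no support beside the shares of all genes. Creb3l4 had its larger step after E19, with intervals that did not overlap. Consecutive steps share the E19 cells.

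**Figure D4:**
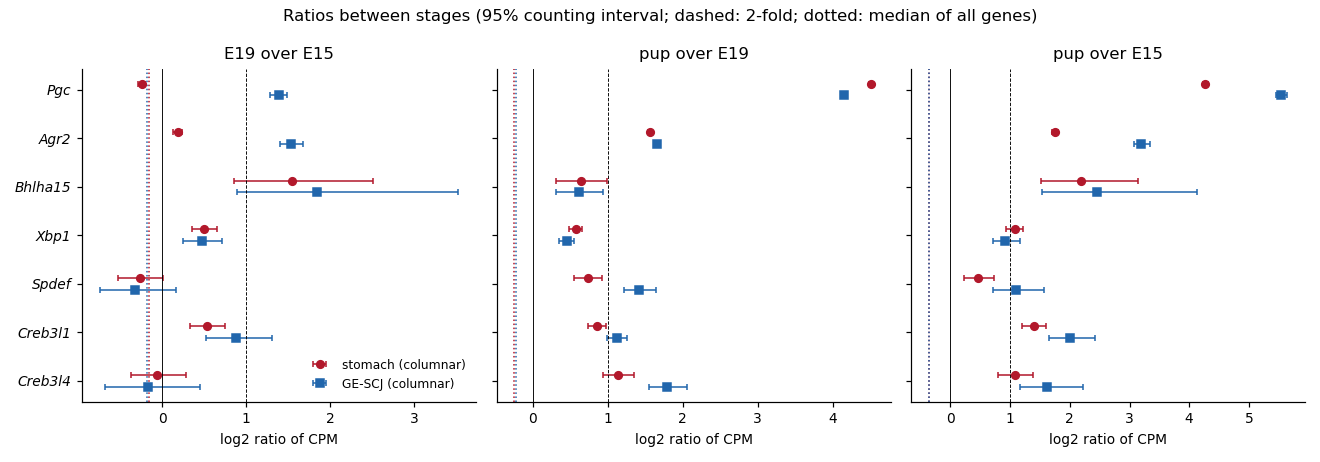
Log2 ratios of CPM between stages for the 7 genes in columnar cells of the stomach and GE-SCJ, with 95% counting intervals, beside 2-fold and the median of all genes. From E15 to E19, Bhlha15 lies past 2-fold at 1.55 (stomach) and 1.84 (GE-SCJ), with intervals that span 2-fold. In the GE-SCJ, Agr2 at 1.54 and Pgc at 1.39 also lie past it.

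Between regions, 2 of the 6 genes with enough UMIs were at least 2-fold higher in E15 stomach, Pgc at 1.43 and Agr2 at 1.45, beside 0.826% of all genes. In the pup 0 of 7 were 2-fold higher in the stomach (0.615% of all genes) and 0 of 7 were 2-fold lower (1% of all genes). The Pgc call at E15 ended without the 1% of cells with the most Pgc, at 0.46, and the median over cells gave 0.24.

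For adults, only 19 GE-SCJ columnar cells were present. Agr2 was lower there than in the pup, at -1.18 (-1.29 to -1.07), and was the 1 of 7 at least 2-fold lower, beside 3.32% of all genes. Pgc stood at -0.70, Spdef at -0.77 (-1.48 to -0.24) and Creb3l4 at -0.59 (-1.29 to -0.07), all with intervals below 0. Bhlha15, Xbp1 and Creb3l1 stood at 0.15 (-0.80 to 0.82), 0.07 (-0.21 to 0.31) and 0.07 (-0.26 to 0.35), with intervals that spanned 0. The median of all 7500 genes with enough UMIs was 0.25, above each of these values and inside each of their intervals. Cells at 10000 CPM of Pgc or more were 7 of 19, or 36.8% (16.3 to 61.6), and held 95.3% of the adult Pgc UMIs. The interval of this share includes the 54.98% of pup GE-SCJ cells. The interval of the Pgc ratio does not cover the draw of these few cells, so it does not show that adult cells were lower.

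Within pup columnar cells, Pgc and Agr2 varied together. Pearson's r of log2(count + 1) was 0.83 over 341 thinned stomach cells and 0.76 over 284 GE-SCJ cells, all of 1 library, given as a description. For Pgc with Creb3l1 it was 0.49 and 0.46, with Creb3l4 0.41 and 0.34, with Spdef 0.36 and 0.32, with Bhlha15 0.23 and 0.31 and with Xbp1 0.20 and 0.20. Neck genes varied with Agr2 (0.71 and 0.49) and with Pgc (0.58 and 0.39), whereas parietal genes went the other way (-0.64 and -0.44 with Agr2, -0.56 and -0.31 with Pgc). In E19 stomach the r of Pgc with Agr2 was 0.12 over 345 cells.

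Likeness was also read over cells. Over 1427 columnar cells, as deviations from their group mean, the 5 of 8077 genes with the highest r with Pgc were Clps (0.71), Muc6 (0.65), Pla2g1b (0.65), Agr2 (0.64) and Fkbp11 (0.47). Before birth the r of Pgc with Agr2 was lower, at 0.25 (E15) and 0.12 (E19) in the stomach and 0.01 and 0.21 in the GE-SCJ. The pooled value was thus mainly that of the pup, and the ranking was not repeated by stage. Clps and Pla2g1b encode colipase and a secreted phospholipase, and Muc6 a secreted mucin. For Agr2 they were Pgc (0.64), Muc6 (0.63), Clps (0.60), Pga5 (0.58) and Fkbp11 (0.50). For Xbp1 they were Pla2g1b (0.20), Muc6 (0.19), Clps (0.17), Gfpt1 (0.17) and Furin (0.15), all weak.

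Over 55 groups of class, region and stage, which come from the same library, the closest of 15804 genes differed by member. For Pgc they were Pla2g1b (0.96), Clps, Muc6, Pdia2 and Pga5 (0.89). For Agr2 they were Tff2 (0.92), Anxa10, Pga5, Tmed6 and Tff1 (0.91), and for Creb3l4 Tff2 (0.89), Eps8l3, Agr2, Galntl6 and Gmds (0.87). Spdef was closest to 5330417C22Rik (0.89), Anxa10, D630039A03Rik, Slc44a3 and Tspan8 (0.84), and Bhlha15 to Pga5 (0.83), Fam3b, Clps, Cystm1 and Cbr1 (0.81). Among the genes closest to Xbp1 were Tram1 (0.72), Edem1, Txndc11 and Pacsin2 (0.67), and Creb3l1 was closest to Cybrd1 (0.85), Srpr, Hdlbp, Anpep and Cd63 (0.79).

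Other products of chief and neck cells were higher in the pup as well. All 4 chief products that were found (Pga5, Cblif, Chia1, Cym) were at least 2-fold higher than at E15 in both regions, with a median log2 ratio of 3.74 in the stomach and 4.68 in the GE-SCJ. Chia1, a chitinase, had 0 UMIs in E15 GE-SCJ and was there at least 21.2-fold higher in the pup against 3 UMIs in that group, and with it at this bound the GE-SCJ median was 4.24. In E15 and pup stomach Pga5, another pepsinogen, stood at 787 and 19548 CPM (4.63) and Cblif, gastric intrinsic factor, at 19.7 and 433 CPM (4.44). Cym, the milk-clotting protease chymosin, stood at 5135 and 41375 CPM (3.01). Chia1 was at 3.04, from 4 UMIs at E15 and 121 in the pup. With so few UMIs at E15 in either region, Chia1 could reach the 100-UMI minimum only if higher in the pup. Its call therefore adds no support to the list. Cym was near its pup level by E19, with pup over E19 ratios of 0.18 and -0.01. Columnar over immune, the list median of the chief products in E15 stomach was 0.01, over 3 genes with enough UMIs. In E15 GE-SCJ it was 1.15, over 2 genes, and in the pup 3.75 and 4.37. As a list, the E15 stomach values were thus near the immune background, and the size of the ratios over them depends on it. Of the 4 neck genes, the 3 with enough UMIs passed 2-fold in both regions, with stomach ratios of 2.01 for Muc6, 1.90 for Gkn3 and 1.23 for Tff2. Aqp5, the remaining neck gene, was lower, with 21 UMIs in E15 and 0 in pup stomach, and had 1 and 0 in the GE-SCJ.

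From E15 to pup, general ER folding genes had list medians near 0, above the all-gene medians of -0.36 (stomach) and -0.35 (GE-SCJ). Of 21 chaperone and quality-control genes, 1 passed 2-fold in the stomach (Herpud1, of ER-associated degradation, at 2.16) and 2 in the GE-SCJ (Herpud1 at 2.37 and Sdf2l1 at 1.06), with medians of 0.16 and -0.01. Sdf2l1 was at 0.91 in the stomach, and the lowest there were Canx (calnexin) at -0.69 and Pdia4 at -0.42. From E15 to E19 the list median was 0.55 in the stomach and 0.34 in the GE-SCJ, beside all-gene medians of -0.16 and -0.18. From E19 to pup it was -0.51 and -0.36, beside -0.25 and -0.23. In the stomach Herpud1 was at 1.19 and Creld2 at -1.11 for this later step. Of the sensors and factors of the unfolded protein response, 0 of 7 passed in the stomach, with Ern1 (IRE1) at 0.83, Eif2ak3 (PERK) at 0.78, Atf4 at 0.04 and Atf6b at -0.35, and 1 of 6 in the GE-SCJ (Ern2, the epithelial IRE1, at 1.06).

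Granule genes and BHLHA15 targets were higher in part. Of those with enough UMIs, 3 of 6 passed 2-fold in the stomach (Derl3 at 3.10, Tmed6 at 2.48 and Ccpg1 at 1.13, with Rab27b at 0.23 and Rab27a at -0.04), and in the GE-SCJ 5 of 6 did. Rab26, with 5 UMIs in E15 and 4 in pup stomach, had too few for a call. Derl3, a degradation factor of the ER membrane, had 6 UMIs in E15 stomach and stood at 15.4 CPM in the pup. It too could reach the 100-UMI minimum there only if higher in the pup. Of 7 genes of COPII transport from ER to Golgi, 1 passed in the stomach (Sec23b at 1.03, with Sec24d at 0.83, Sec23a at 0.03 and Sar1a at -0.24) and 0 in the GE-SCJ. Of 3 other CREB3 and AGR relatives with enough UMIs none passed in either region (Creb3l2 at 0.64, Creb3 at 0.61 and Txndc12 at -0.67 in the stomach). Agr3, with 8 UMIs in E15 and 69 in pup stomach, and Creb3l3, with 0 and 14, had too few for a call there. In the mucous program 2 of 9 passed in the stomach (Muc5b at 3.12 and Muc1 at 1.37, with Galnt7 at -0.15 and Foxa3 at -0.28) and 5 of 9 in the GE-SCJ. These counts stand beside the 8.97% and 8.41% of all genes.

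**Figure D5:**
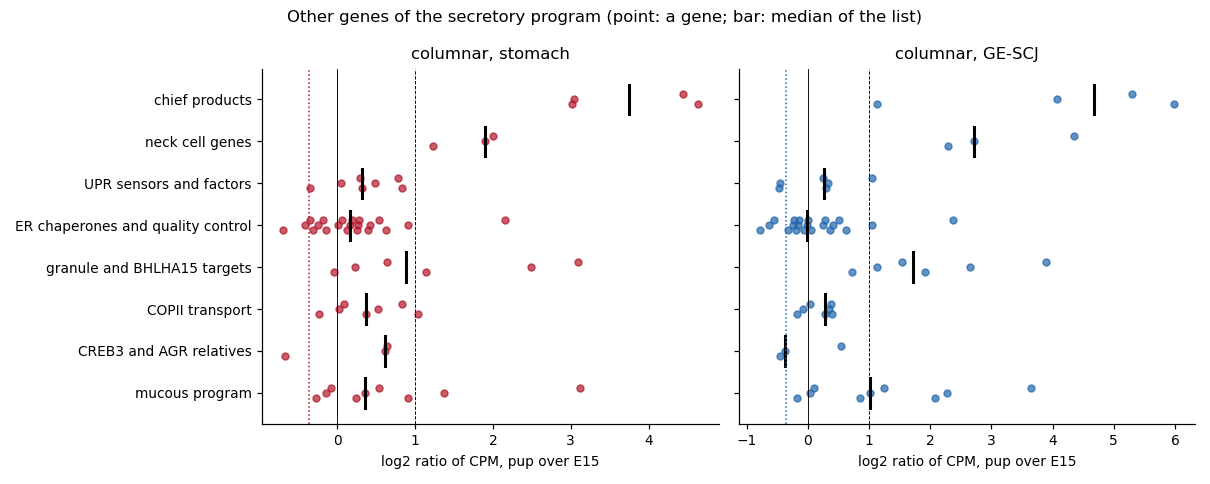
Log2 ratio of CPM, pup over E15, for genes with at least 100 UMIs in each list, in columnar cells of the stomach and GE-SCJ, with list medians, 2-fold and the median of all genes marked. Chief products and neck genes lie past 2-fold in both regions, and ER chaperones have medians of 0.16 and -0.01.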

How the data were processed

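Cells of the esophagus, GE-SCJ and stomach were tagged by region and stage (10x Genomics 3′ v3.1 with CellPlex). The authors aligned and counted with Cell Ranger 6.1.1 on the mm10 (GRCm38) mouse reference and removed barcodes outside set ranges, also as a doublet screen; no further doublets were removed here. The deposited values are raw UMI counts, with class labels and a percent of mitochondrial UMIs that the authors computed. All 7808 barcodes were distinct, and the expression and tag lists held the same cells.

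The 7 genes and all lists were chosen with earlier results of these data known. UMIs were summed per group (1323799 to 11420234 UMIs; adult 495773), with exact 95% intervals (scipy 1.17.1 and numpy 2.4.6 under Python 3.11.15; tables with pandas 2.3.3, plots with matplotlib 3.10.9). Thinning drew 5000 UMIs per cell and left out shallower cells, 1, 21 and 10 in the stomach by stage, 1, 8, 7 and 1 in the GE-SCJ, and 101 of 354 immune cells. Likeness used log2(CPM + 10) over groups of at least 20 cells, for genes with at least 50 UMIs, or log2(count + 1) over thinned cells, for genes found in at least 5% of them. Genes were named by rule: the 7, the 5 most like each (over cells, for Pgc, Agr2 and Xbp1), and per list up to 2 with the largest and 2 with the smallest stomach pup over E15 ratio. Of the genes most like Xbp1, 1 is not reported here. Creld2, Ern2 and the medians over cells were chosen after values were seen. The steps were tested on simulated data. Alternatives were filters on cells, library size, immune subtraction, means or medians over cells, removal of the top 1% of cells, UMI minimum and fold.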

Additional observations from a re-analysis of the deposited data

Results flagged for a closer look

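The sum-based E19 over E15 log2 ratio of Pgc lay on opposite sides of 0 in the regions, at -0.24 in stomach and 1.39 in GE-SCJ columnar cells. The difference was not tested, and the ratios were 0.020 and -0.043 from medians over cells and 0.71 and 0.81 without the 1% of cells with the most Pgc.

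The 46 columnar cells with an esophagus tag entered no comparison above, and 6 of the 7 genes, all but Xbp1, had counting intervals above those of all immune cells in them. They held 20956 CPM of Pgc, 2301 CPM of Agr2, 19.8 CPM of Bhlha15, 47.7 CPM of Spdef, 141 CPM of Creb3l1 and 55.1 CPM of Creb3l4. The 9 such cells of E15 held 50518 CPM of Pgc, with 5 of 9 at 10000 CPM or more, beside 2 of 140 E15 stomach cells. Other classes' markers were also high in these cells: stromal genes (Col1a1, Col3a1, Dcn) summed to 3384 CPM, and to 5881 CPM at E15 beside 271 CPM in E15 stomach columnar cells. Endocrine genes (Chga, Chgb, Ghrl, Sst) summed to 40257 CPM and squamous genes (Krt5, Trp63, Krt13) to 697 CPM at E19. Their part in the members' levels was not tested.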

How the results depend on the processing

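No paired analysis was possible because the values come from no test and each region and stage is 1 sample. For pup over E15, all 14 log2 ratios stayed above 0 with a filter on cells (at least 1000 UMIs, at most 10% mitochondrial), another library size, means over cells or without the top 1% of cells, and 12, 10, 12 and 12 of them were at least 2-fold. Subtracting the immune level gave a value for 10, all above 0, and none for Pgc or Xbp1, and of 10 medians over cells 9 were above 0. Pgc in the stomach (4.27) was 4.41 with the cell filter, 5.51 without the top 1% of cells, 4.18 with library size without mitochondrial, ribosomal protein and hemoglobin genes, and 4.47 by medians. In the GE-SCJ (5.54) it was 5.66 with the cell filter, 5.82 without the top 1% and 5.04 by medians. Agr2 in the stomach (1.75) was 1.90, 1.88, 1.66 and 1.30 under these 4 settings and 1.91 with the immune level subtracted, and in the GE-SCJ (3.20) 3.86 with subtraction and 2.64 by medians. Spdef by medians was -0.27 in the stomach and 0.71 in the GE-SCJ, and Creb3l1 with subtraction was 1.73 and 2.61. The E19 over E15 ratio of Pgc in the GE-SCJ was reversed by medians, at -0.043. In the stomach 1408 genes were higher at 1.5-fold (837 at 2-fold), and in the GE-SCJ 1165 at 1.5-fold and 1098 with a minimum of 20 UMIs (673 in the text). Causes of these shifts were not tested beyond each setting's own construction. Few cells in the adult group (19) and E15 GE-SCJ (53) limit precision, as does the spread between mice, which was not measured.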

Other observations

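The surface mucous (pit) genes Gkn1, Gkn2, Tff1 and Muc5ac summed to 1807, 8221 and 14098 CPM in E15, E19 and pup stomach columnar cells and to 1950, 2777, 18962 and 5262 CPM in the GE-SCJ from E15 to adult, so the larger step by ratio lay before E19 in the stomach and after it in the GE-SCJ. Over pup cells these genes had an r of -0.29 (stomach) and -0.55 (GE-SCJ) with Pgc. The endocrine genes Chga, Chgb, Ghrl and Sst summed to 771, 587 and 160 CPM in the stomach and to 74.0, 1338, 174 and 448 CPM in the GE-SCJ. Immune cells of E15, E19 and pup held 115, 95.1 and 148 CPM of these genes, so the pup sums and that of E15 GE-SCJ were near or below this background.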
